A study of Mus musculus with 9 samples.

Results

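RNA levels of 10 genes of lymphoid and multipotent progenitor priming, Flt3, Cd48, Il7r, Notch1, Ikzf1, Satb1, Ebf1, Dntt, Rag1 and Ighm, were examined in mouse long-term hematopoietic stem cells (LT-HSCs). The genes were chosen by name, with earlier results of these data known, and are 10 of the 47643 genes in the count table. The study compared LT-HSCs that had lost the class IA PI3K catalytic isoforms with control LT-HSCs by bulk RNA sequencing, with 3 libraries per genotype and 9 in all. WT cells (genotype WT, Mx1-Cre) carried no PI3K deletion, δKO cells (Pik3calox-lox; Pik3cblox-lox;Pik3cd-/-) were from littermate controls that lacked p110δ from birth and had no Cre, and TKO cells had the δKO alleles plus Mx1-Cre. Donors were C57BL/6, and whole bone marrow of each genotype had been transplanted into lethally irradiated B6.SJL recipients of 6 to 8 weeks of age. All recipients received 250 µg of pIpC 2 times, 48 hours apart. pIpC induces interferon, which turns on the Mx1 promoter, so that Cre was induced in WT and TKO cells but not in δKO cells. Marrow was harvested 4 weeks later and pooled from 7 recipients per group before sorting. Since the sources do not say that libraries of a genotype came from separate pools, the p-values measure only the spread between these libraries, which may be technical. The sort gate was Lin-cKit+Sca1+Flk2-CD48-CD150+. Flk2 is the protein product of Flt3, so 2 of the 10 genes encode proteins whose absence from the cell surface defined the sorted cells.

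Lymphoid priming is the low expression of lymphoid genes in multipotent cells before they commit to a lineage. As LT-HSCs become multipotent progenitors they gain CD48 and then FLT3, and the FLT3-high, lymphoid-primed progenitors begin to express Dntt, Rag1 and Il7r as well as transcripts of the unrearranged immunoglobulin heavy chain locus. PI3K acts downstream of FLT3 and the IL-7 receptor and, through AKT, keeps FoxO transcription factors out of the nucleus. FoxO1 is known to activate Il7r and the Rag genes in the B lineage, IKAROS (Ikzf1) and SATB1 act early in lymphoid priming, and EBF1 commits cells to the B lineage.

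RefSeq start sites were matched for 9 of the 10 genes, which gave 15 windows of 250 bases before a start (build GRCm38.p6), and Ighm had no window. Short motifs of factors of this pathway were searched on both strands: a FoxO forkhead core (GTAAACA), an IKAROS core (TGGGAA), an E2A E-box (CAGGTG) and the EBF palindrome, which can share bases with the IKAROS core. The FoxO core and the EBF palindrome had no match in these windows, and they matched 3.166% and 0.7793% of all 32851 windows. The IKAROS core matched 3 of the 15 windows (of Rag1, Satb1 and Ebf1) and the E-box 2 of the 15 (of Rag1 and Satb1), where they matched 21.59% and 17.22% of all windows. Rag1 and Satb1 are shown as a gene nearly silent in these cells and an expressed gene that each held both motifs, with capitals on the matches. Flt3 and Dntt held none of the motifs and are shown because their levels followed each other across the libraries, as described below; these 2 were chosen after their values were seen.
Rag1, chr2:101649533-101649782, minus strand: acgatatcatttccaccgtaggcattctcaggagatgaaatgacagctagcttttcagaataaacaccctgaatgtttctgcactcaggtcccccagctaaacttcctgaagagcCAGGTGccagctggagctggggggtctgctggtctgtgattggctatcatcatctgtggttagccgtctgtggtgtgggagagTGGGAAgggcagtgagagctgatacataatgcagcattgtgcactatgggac
Satb1, chr17:51826589-51826838, minus strand: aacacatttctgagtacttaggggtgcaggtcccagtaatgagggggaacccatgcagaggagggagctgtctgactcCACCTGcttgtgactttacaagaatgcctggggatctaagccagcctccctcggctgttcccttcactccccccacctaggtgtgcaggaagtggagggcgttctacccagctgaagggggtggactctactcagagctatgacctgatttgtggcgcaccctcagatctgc
Satb1, chr17:51812055-51812304, minus strand: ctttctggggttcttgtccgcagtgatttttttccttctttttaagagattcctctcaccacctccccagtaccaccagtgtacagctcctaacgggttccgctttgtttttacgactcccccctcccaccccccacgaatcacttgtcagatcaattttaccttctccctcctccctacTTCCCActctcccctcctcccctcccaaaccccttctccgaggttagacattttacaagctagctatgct
Flt3, chr5:147400490-147400739, minus strand: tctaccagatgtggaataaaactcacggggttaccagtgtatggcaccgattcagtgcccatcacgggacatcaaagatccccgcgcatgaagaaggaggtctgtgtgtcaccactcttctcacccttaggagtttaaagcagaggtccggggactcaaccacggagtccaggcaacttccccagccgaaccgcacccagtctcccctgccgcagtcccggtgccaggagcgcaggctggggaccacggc
Dntt, chr19:41029025-41029274, plus strand: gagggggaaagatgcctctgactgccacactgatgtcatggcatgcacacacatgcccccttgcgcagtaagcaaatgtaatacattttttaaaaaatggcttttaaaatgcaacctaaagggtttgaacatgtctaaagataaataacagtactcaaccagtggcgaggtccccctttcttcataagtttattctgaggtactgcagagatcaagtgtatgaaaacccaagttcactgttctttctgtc
In the Rag1 window the E-box lay 135 to 130 bases and the IKAROS core 52 to 47 bases before the start, both on the gene's own strand. Satb1 held its matches in windows of 2 of its internal starts, each on the opposite strand: the E-box 172 to 167 bases and the IKAROS core 70 to 65 bases before the respective start. The third IKAROS match lay 207 to 202 bases before the second of the Ebf1 starts, also on the opposite strand. A match describes letters in a window and not bound protein.

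Library totals ran from 40617691 to 60386097 counts in WT, 31300343 to 54249565 in δKO and 37544783 to 46224594 in TKO, and the number of genes with a count from 18180 to 22038 in δKO against 21616 to 22446 in WT and 19703 to 22703 in TKO. δKO replicate 1 had the fewest genes detected and was the lowest of the 9 libraries for 29.0% of all tested genes and the highest for 23.7%. The third δKO library has a number in the count table that no sample label gives, and it is called the unnumbered δKO library here. LT-HSC marker genes, 14 in all and including Procr, Fgd5, Hlf and Mecom, were each counted in every library. So were all 10 neutrophil markers described below, so a count does not by itself check the LT-HSC label. The LT-HSC markers summed to 1613 to 2095 CPM in WT, 1764 to 3735 in δKO and 2379 to 2925 in TKO. CPM are read counts scaled to library size, which allows levels of a gene to be compared between libraries. Of the targeted genes, Pik3ca was at 57.1 ± 10.1 CPM in WT and 60.2 ± 7.59 in TKO, Pik3cb at 56.1 ± 10.1 and 30.9 ± 4.77, and Pik3cd at 116 ± 20.5 and 72.5 ± 1.25 (SD, n = 3 libraries). δKO had 59.1 ± 25.4, 67.6 ± 33.8 and 66.9 ± 26.6 CPM of these genes. The counts cover whole genes, so they do not check the deleted exons.

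Per kilobase of exon, the scale on which genes can be compared with each other, Ikzf1 was the highest of the 10 genes in WT at 65.6 ± 16.4 CPM per kb (SD, n = 3). Ighm followed at 42.4 ± 32.8, Cd48 at 17.7 ± 2.10, Flt3 at 9.80 ± 7.69, Dntt at 5.42 ± 6.18, Notch1 at 4.10 ± 1.61 and Satb1 at 2.38 ± 1.69 CPM per kb. The SDs of several neighbours in this order overlapped, those of Ikzf1 and Ighm among them. Without WT replicate 1 Notch1 (3.19 CPM per kb) came before Dntt (1.87), as it did in TKO. Il7r, Ebf1 and Rag1 lay at 0.0170 ± 0.0184, 0.0123 ± 0.0163 and 0.0120 ± 0.0183 CPM per kb. RNA of both sort genes was therefore counted in libraries of cells sorted as negative for their proteins. How much of it came from other cells was not tested. In TKO the order was Ikzf1 (56.8 ± 4.19 CPM per kb), Cd48 (10.1 ± 1.84), Ighm (6.50 ± 5.65), Flt3 (4.73 ± 2.38), Notch1 (2.69 ± 0.134), Satb1 (0.749 ± 0.347) and Dntt (0.640 ± 0.239), with Ebf1, Rag1 and Il7r again lowest.

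**Figure D1:**
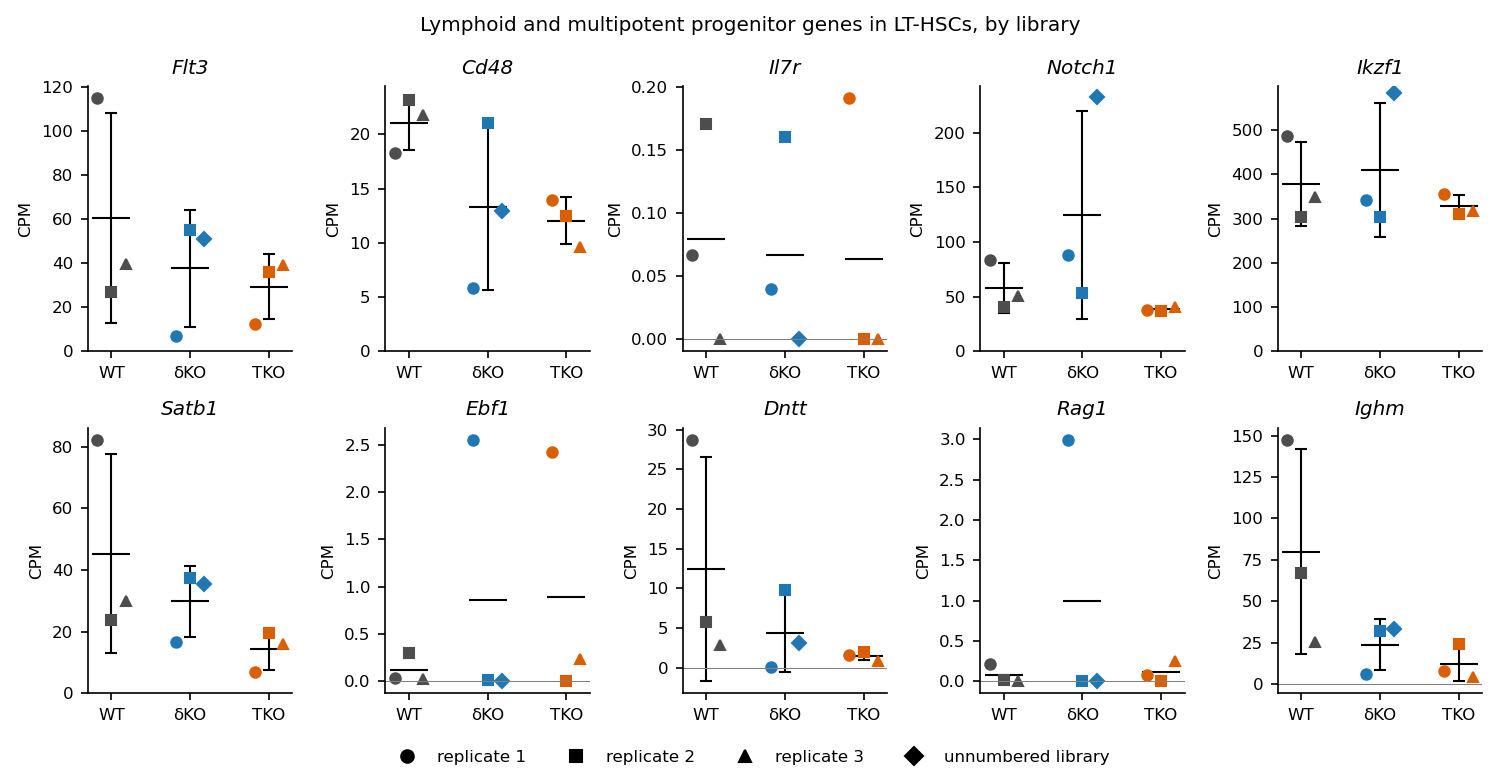
Level of each of the 10 genes in CPM (y axis, linear) in each library of WT, δKO and TKO LT-HSCs (x axis), with the mean of the 3 libraries as a horizontal bar and the SD as a vertical bar; Il7r, Ebf1 and Rag1, which had few counts, have the mean only. WT replicate 1 is the highest library for Flt3, Satb1, Dntt and Ighm, and the 3 TKO libraries lie below the 3 WT libraries for Cd48, Satb1, Dntt and Ighm.

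Of the 10 genes, 8 passed the filter on low counts and were tested with edgeR; Il7r and Rag1 did not pass. Between TKO and WT, none of the 8 was called at an adjusted p under 0.05 and more than 2-fold, in a comparison that called 0.00549% of all tested genes (1 of 18205). Of these 8, 3 had an unadjusted p under 0.05 (Ighm, Satb1 and Dntt), all lower in TKO, where 4.19% of all genes had such a p. The fitted difference was negative for 7 of the 8, with a median of -0.93 log2 against 0.02 over all tested genes. In 4 genes, Cd48, Satb1, Dntt and Ighm, each TKO library was lower than each WT library, which held for 7.47% of all genes. The genes were chosen with earlier results of these data known, so these counts beside the shares of all genes are a description only. The median difference of the 8 genes was -0.57 log2 without WT replicate 1. The share of counts in mitochondrial rRNA was 14.4 to 16.8% in WT and 8.64, 15.7 and 6.88% in TKO replicates 1, 2 and 3, and 9.63, 16.9 and 17.1% in δKO replicates 1 and 2 and the unnumbered library. TKO replicates 1 and 3 and δKO replicate 1, the libraries with the lowest shares, also had the lowest median of the 8 genes relative to their means (-0.69, -0.57 and -0.91 log2), and the part of this in the differences was not tested. DESeq2 on the 6 WT and TKO libraries called 2 of the 10, Dntt and Ighm, and 3.04% of all genes (574 of 18879 with an adjusted p); DESeq2 on all 9 libraries and limma-voom with quality weights called none of the 10, and 0.649% and 0.0659% of all genes.

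Among the receptors and surface proteins, Flt3 encodes the receptor for FLT3 ligand, a cytokine of early lymphoid and dendritic cell development. Flt3 was at 115, 27.0 and 39.8 CPM in WT replicates 1, 2 and 3, at 12.3, 36.0 and 39.3 in the TKO replicates, and at 7.05 and 55.2 in δKO replicates 1 and 2 and 50.8 in the unnumbered δKO library. WT replicate 1 stood above the other 8 libraries, 2.08 times the next, and the remaining WT libraries overlapped the TKO libraries. The fitted difference between TKO and WT was -1.05 log2 (SE 0.74, edgeR adjusted p = 1.00) and -0.20 without WT replicate 1. In bulk RNA, fewer cells of a type and less RNA per cell cannot be told apart.

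Cd48 encodes a surface receptor of the SLAM family that rises on leaving the LT-HSC state. It was the steadiest of the genes within WT, at 18.3, 23.1 and 21.8 CPM, and lay at 13.9, 12.5 and 9.66 CPM in TKO. The 2 groups did not overlap, and WT replicate 1 was here the lowest of the WT libraries. The difference was -0.81 log2 (SE 0.52, edgeR adjusted p = 1.00), and -0.93 to -0.67 with any library left out. δKO spanned both groups, at 5.82 and 21.1 CPM in replicates 1 and 2 and 12.9 in the unnumbered library.

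Il7r encodes the IL-7 receptor α chain, needed by committed lymphoid progenitors. It had 4, 9 and 0 counts in WT, 10, 0 and 0 in TKO, and 1 and 9 in δKO replicates 1 and 2 and 0 in the unnumbered library. With a total of 33 counts over 9 libraries, a difference in Il7r was not detectable at this depth; a count of 0 allows a level of up to 3 counts in that library.

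Notch1 encodes the receptor that directs T lineage commitment. Its level was 84.0, 40.2 and 50.7 CPM in WT and 38.0, 36.6 and 40.4 CPM in TKO, so that the 3 TKO libraries lay within 1.10-fold of each other. In δKO it was 88.4 and 53.4 CPM in replicates 1 and 2 and 233 in the unnumbered library, which was 2.63 times the next library of any genotype. Between TKO and WT the fitted difference was -0.60 log2 (SE 0.47, edgeR adjusted p = 1.00), and the groups overlapped. The Notch1 exons share 1068 bases with 0610009E02Rik (239 counts in all, against 25941 for Notch1) and 414 with Gm13568 (2 counts). Both of these genes are on the opposite strand.

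Among the nuclear regulators, Ikzf1 encodes IKAROS, a zinc finger factor required for lymphoid development. It was abundant and steady, at 485, 303 and 349 CPM in WT, 356, 311 and 318 in TKO, and 343 and 304 in δKO replicates 1 and 2 and 583 in the unnumbered library. Its mean level exceeded that of 98.6% of the tested genes. The highest library was 1.93 times the lowest, and the difference between TKO and WT was -0.21 log2 (SE 0.28, edgeR adjusted p = 1.00) and 0.01 without WT replicate 1.

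Satb1 encodes a chromatin organizer that promotes lymphoid programs in stem cells. Its level was 82.3, 23.7 and 29.8 CPM in WT and 6.90, 19.7 and 16.2 CPM in TKO, with no overlap. δKO replicates 1 and 2 had 16.6 and 37.4 CPM and the unnumbered δKO library 35.4. TKO was lower than WT by -1.67 log2 in the fit (SE 0.58, edgeR adjusted p = 1.00). The value was -0.91 without WT replicate 1 and -1.34 without TKO replicate 1, and in neither case was the unadjusted p still under 0.05. The Satb1 exons share 156 bases with Gm36931 (2020 counts in all, against 12688 for Satb1) and 128 with Gm6934 on the opposite strand (30 counts).

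Ebf1 had 2, 16 and 1 counts in WT, 127, 0 and 11 in TKO, and 64 and 1 in δKO replicates 1 and 2 and 0 in the unnumbered library. It passed the filter mainly through TKO replicate 1 and δKO replicate 1, with 2.43 and 2.55 CPM. The mean over WT was 0.120 CPM. The fitted differences of 2.85 log2 (SE 2.31) between TKO and WT and 0.06 (SE 2.15) between TKO and δKO had edgeR adjusted p-values of 1.00 and 0.993. Without TKO replicate 1 they were -0.03 and -2.82.

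Among the antigen receptor genes, Dntt encodes terminal deoxynucleotidyl transferase, which adds bases at V(D)J junctions and is an early mark of lymphoid priming. Dntt was at 28.7, 5.78 and 2.79 CPM in WT replicates 1, 2 and 3 and at 1.59, 1.95 and 0.868 in TKO, so each TKO library was below each WT library. In δKO it was 0.120 CPM (3 counts) in replicate 1, 9.75 in replicate 2 and 3.09 in the unnumbered library. The fitted TKO to WT difference was -3.08 log2 (SE 1.30, edgeR adjusted p = 1.00). WT replicate 1 was 6.69 times the mean of the other WT libraries, and without it the difference was -1.55. The unadjusted p was above 0.05 without WT replicate 1 and without any of the 3 TKO libraries, where the difference was -3.15, -3.34 and -2.82. DESeq2 on the WT and TKO libraries gave -3.08 with an adjusted p of 0.00979, and DESeq2 on all 9 libraries 0.299.

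Rag1 encodes a subunit of the V(D)J recombinase. It had 13, 1 and 0 counts in WT, 4, 0 and 12 in TKO, and 75, 0 and 0 in δKO replicates 1 and 2 and the unnumbered library. δKO replicate 1 held 75 of the 105 counts, 2.99 CPM. Rag1 shares 80 exon bases with B230118H07Rik, which is on the same strand and had 6779 counts, so that the few Rag1 counts are uncertain.

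Ighm encodes the constant region of the µ heavy chain, whose locus is transcribed before it is rearranged. Ighm was at 147, 67.1 and 25.5 CPM in WT and at 8.12, 24.4 and 4.28 CPM in TKO, with the lowest WT library just above the highest TKO library. δKO replicate 1 had 5.90 CPM, replicate 2 31.7 and the unnumbered library 33.5. TKO was lower than WT by -2.71 log2 (SE 0.83, edgeR adjusted p = 1.00). The value was -1.92 without WT replicate 1 and -3.69 without TKO replicate 2, and the unadjusted p was under 0.05 with any library left out. DESeq2 gave an adjusted p of 0.00771 on the WT and TKO libraries and 0.121 on all 9.

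**Figure D2:**
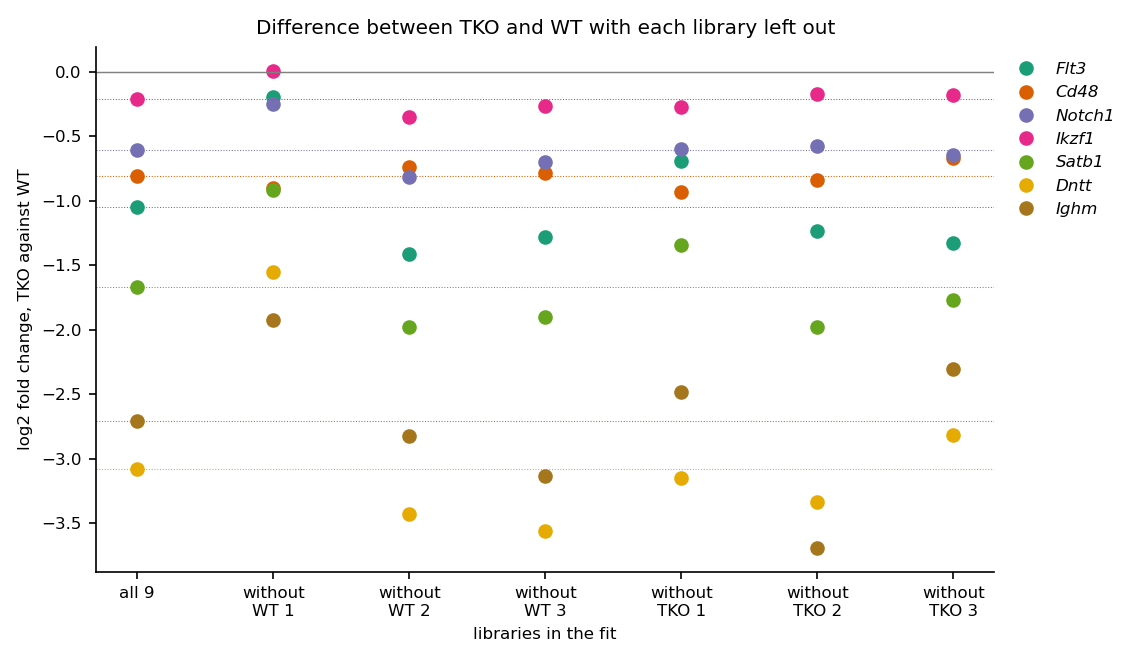
Fitted log2 difference between TKO and WT (y axis) for 7 genes with all 9 libraries and with each WT or TKO library left out (x axis); dotted lines mark the value with all libraries, and Ebf1, whose value ran from -0.03 to 4.81, is not drawn. Leaving out WT replicate 1 brings Flt3 to -0.20, Satb1 to -0.91, Dntt to -1.55 and Ighm to -1.92, while Cd48 stays between -0.93 and -0.67.

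Among other B lineage genes, Igkc, the constant region of the κ light chain, was at 123, 127 and 0.668 CPM in WT, at 19.8, 0.356 and 0.810 in δKO replicates 1 and 2 and the unnumbered library, and at 0.401, 0.552 and 0.656 in TKO. WT replicates 1 and 2, the libraries with the most Ighm, were thus also those with the most Igkc, while WT replicate 3 had 25.5 CPM of Ighm and an Igkc level like that of TKO. The summed level of the 15 B cell markers was 14.96 to 142 CPM in WT, 15.96 to 36.6 in δKO and 6.67 to 16.2 in TKO. Igkc made up most of it in WT replicates 1 and 2, and without Igkc the sums overlapped, at 14.3 to 15.6 CPM in WT, 15.6 to 19.7 in δKO and 6.01 to 15.8 in TKO. Of the 9 tested markers, 6 had lower fitted levels in TKO than in WT (median -0.75 log2), and 7 had lower levels than in δKO (median -0.69). In each case 1 marker, Igkc, was lower with an unadjusted edgeR p under 0.05, and edgeR and DESeq2 on all libraries called 0. Among the defining markers, Cd22 was at 0 in every library, Ms4a1 had a count in only 1 library, and Cd79a reached 2.67 CPM at most, in δKO replicate 2. Cd79b, the other chain of the B cell receptor signalling pair, was present in every library, at 4.55 to 10.3 CPM in WT, 7.40 to 9.25 in δKO and 4.13 to 11.3 in TKO. Between 6 and 12 of the 15 had a count in a library. The part of other B lineage cells or RNA in the Ighm difference was not tested.

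**Figure D3:**
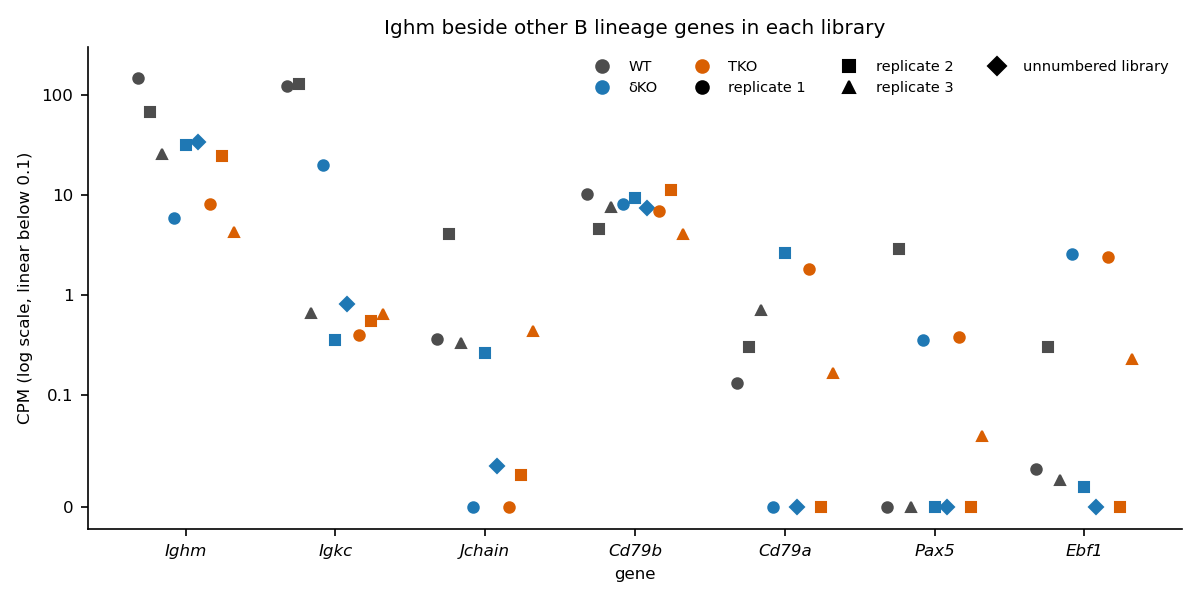
Levels of Ighm and 6 other B lineage genes in CPM (y axis, log scale above 0.1 and linear below) in each of the 9 libraries, coloured by genotype and shaped by replicate. Ighm lies above 4 CPM in every library and Igkc exceeds 100 CPM only in WT replicates 1 and 2, while Cd79a and Pax5 stay below 3 CPM in every library.

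Markers of other lineages also differed between libraries. The 10 neutrophil markers, among them Elane and Ltf, summed to 5551 to 12857 CPM in WT, 277 to 12792 in δKO and 169 to 3410 in TKO; 10 of 10 had lower fitted levels in TKO than in WT, 6 with an unadjusted edgeR p under 0.05 and 0 called. All 10 had a count in every library. T and NK cell markers summed to 98.0 to 244 CPM in WT, 93.3 to 197 in δKO and 43.1 to 97.5 in TKO, with 5 to 11 of 16 counted in a library and 3 (Cd3e, Cd3g and Cd8a) at 0 in all. Nkg7, a granule gene of NK and cytotoxic T cells, was at 73.4 to 231 CPM in WT and 16.5 to 65.3 in TKO, and in δKO at 3.75 and 102 in replicates 1 and 2 and 192 in the unnumbered library. Nkg7 made up most of the T and NK sum in each WT library. Of the 6 tested markers, it alone had a lower fitted level in TKO than in WT. In δKO replicate 1 the sum came mostly from Lck (51.4 CPM) and Thy1 (35.6 CPM). Between TKO and WT, 5 of the 6 tested markers had higher fitted levels in TKO, with a median of 0.63 log2. For WT, δKO and TKO in this order, dendritic cell markers summed to 143 to 192, 96.5 to 185 and 194 to 262 CPM, erythroid markers to 8.64 to 161, 16.7 to 77.8 and 23.8 to 86.4, and megakaryocyte markers to 356 to 894, 687 to 931 and 598 to 844. All 14 LT-HSC markers had higher fitted levels in TKO than in WT, with a median of 0.69 log2, 3 with an unadjusted edgeR p under 0.05, 0 called by edgeR and 2 (Fgd5 and Tie1) called by DESeq2 on all libraries. The part of these markers in the differences of the lymphoid genes was not tested.

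TKO and its littermate control δKO differ in p110α, p110β and Cre, which cannot be told apart here. Between them, edgeR called none of the 8 tested genes and 0% of all genes, where 10.2% of all genes (1851) had an unadjusted p under 0.05. The fitted value was negative for 7 of the 8, with a median of -0.66 log2 against -0.06 over all genes. The median was -1.11 without δKO replicate 1 and -0.25 with the deposited normalized values. With the replicate number as a block in the fit it was 0.0195. Notch1 alone of the 8 had an unadjusted p under 0.05, and each TKO library was lower than each δKO library, which held for 4.74% of all genes. Its difference was -1.70 log2 (SE 0.49, edgeR adjusted p = 0.465), and -0.89 without the unnumbered δKO library (edgeR adjusted p = 0.508). The unadjusted p was under 0.05 in both cases, but not when each library's count of detected genes was a covariate, where the difference was -1.05 log2. DESeq2 called none of the 10, against 3.06% of all genes on all libraries and 1.51% on the groups compared, with a lowest adjusted p for Notch1 of 0.0604 on all 9 libraries.

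The other differences between TKO and δKO had unadjusted p-values above 0.05 with all 9 libraries, and their libraries overlapped. They were -1.07 log2 (SE 0.57, edgeR adjusted p = 0.543) for Satb1, -1.56 (SE 1.23, 0.678) for Dntt and -0.95 (SE 0.79, 0.693) for Ighm. Flt3 differed by -0.37 (SE 0.73), Cd48 by -0.14 (SE 0.52) and Ikzf1 by -0.32 log2 (SE 0.28). δKO replicate 1 lowered the δKO level of Flt3, Cd48 and Dntt, for which it was the lowest of the 9 libraries. Without it the difference was -0.86 log2 for Flt3, -0.50 for Cd48 and -2.14 for Dntt (edgeR adjusted p = 0.560, 0.637 and 0.405), and the unadjusted p was then under 0.05 for Dntt and Satb1. Without δKO replicate 2 the values were 0.0048 for Flt3, 0.35 for Cd48 and -0.14 for Dntt. Ighm was at -1.94 without TKO replicate 2, where its unadjusted p was under 0.05, and at -0.55 without TKO replicate 3.

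δKO and WT differ in p110δ, in Cre and in the floxed alleles, which cannot be told apart either. Between them, edgeR again called none of the 8 and 0.00549% of all genes. Notch1 was the only member with an unadjusted p under 0.05, against 7.01% of all genes, and was higher in δKO by 1.10 log2 (SE 0.48, edgeR adjusted p = 0.699). Without the unnumbered δKO library the value was 0.28. No gene of the 8 had all δKO libraries below all WT libraries, which held for 7.39% of all genes. Ighm differed by -1.75 log2 (SE 0.80, edgeR adjusted p = 0.699), Dntt by -1.52 (SE 1.22), Flt3 by -0.68 (SE 0.73), Cd48 by -0.66 (SE 0.52), Satb1 by -0.60 (SE 0.56) and Ikzf1 by 0.11 (SE 0.28). Without WT replicate 1, Ighm was at -0.96, while Dntt, Flt3 and Satb1 turned to 0.0160, 0.18 and 0.16 log2. The median over the 8 was -0.63 log2 with all libraries and 0.17 without WT replicate 1, against 0.05 over all genes. DESeq2 called none of the 10, against 1.03% of all genes on all libraries and 0.988% on the groups compared. The 3 comparisons share libraries, so their values are not independent of each other.

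**Figure D4:**
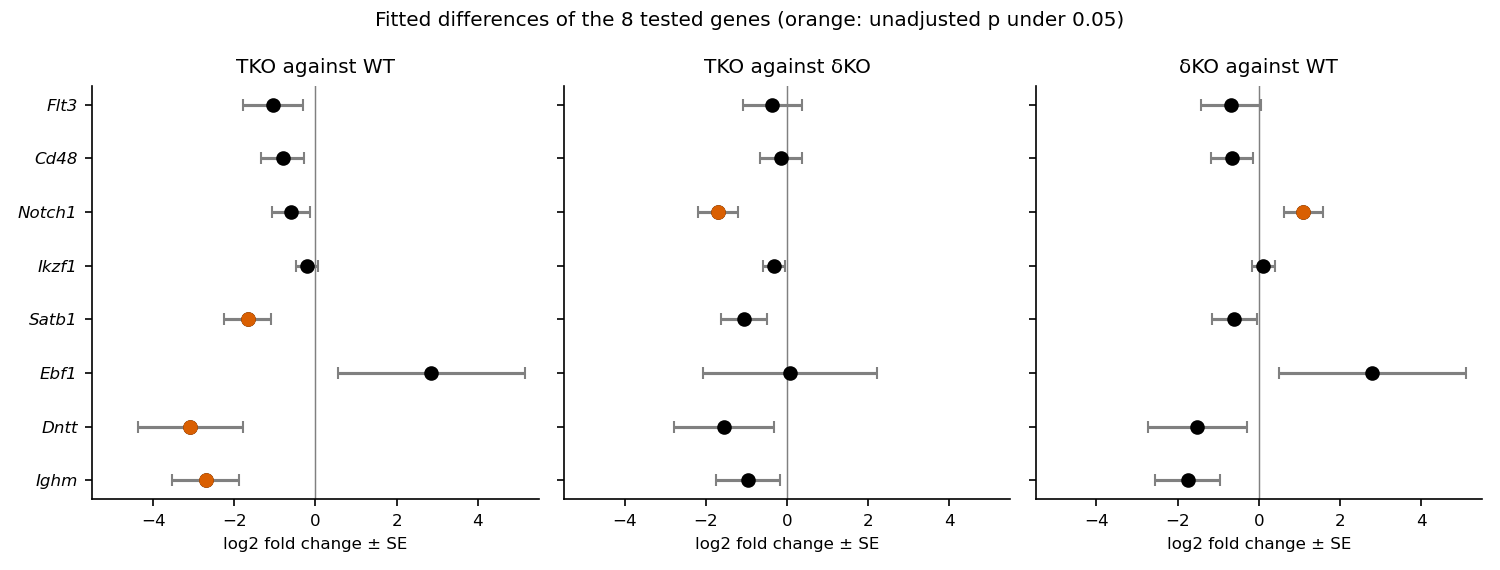
Fitted log2 differences (x axis, with the SE as bars) of the 8 tested genes (y axis) in the 3 comparisons, with orange points for an unadjusted edgeR p under 0.05. Satb1, Dntt and Ighm are orange and negative between TKO and WT, and Notch1 is orange at -1.70 between TKO and δKO and at 1.10 between δKO and WT.

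The genes fell into unlike patterns over the libraries. Flt3, Satb1, Dntt and Ighm were each highest in WT replicate 1, which was the highest library for 8.14% of all tested genes. Ikzf1 and Notch1 were highest in the unnumbered δKO library, the highest for 17.1% of all genes. As a description over the 9 libraries, which share 3 genotypes and their pools, log2 CPM of Flt3 and Satb1 had a Pearson r of 0.81 (Spearman 0.85), Dntt and Ighm 0.88 (0.93), Flt3 and Dntt 0.84 (0.77), Cd48 and Dntt 0.85 (0.73), Ikzf1 and Notch1 0.86 (0.50), and Flt3 and the sparsely counted Ebf1 -0.86 (-0.63). With the genotype means taken out, r was 0.92, 0.85, 0.81, 0.77, 0.96 and -0.86. The biological coefficient of variation was 0.619 for Flt3, 0.504 for Satb1, 0.657 for Ighm and 0.974 for Dntt, against a median of 0.677 over all tested genes, and it was 0.285 for Ikzf1.

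**Figure D5:**
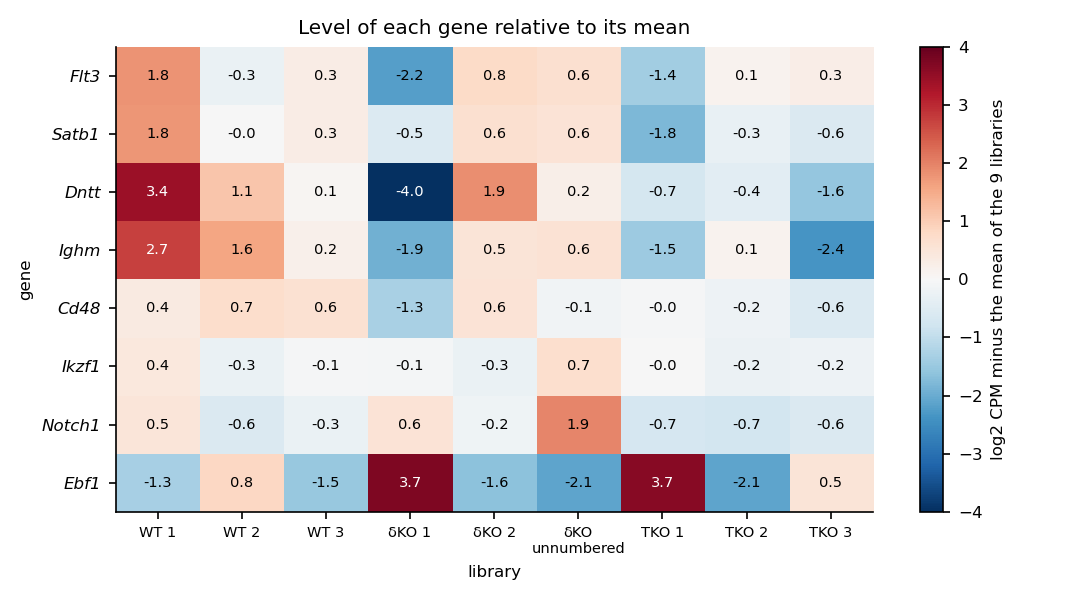
Log2 CPM of each tested gene (rows) in each library (columns) minus the mean of the 9 libraries. Flt3, Satb1, Dntt and Ighm are most above their mean in WT replicate 1, Dntt is most below it in δKO replicate 1, and Notch1 is most above it in the unnumbered δKO library.

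Of 10768 genes of at least 5 CPM, those most like Flt3 over the 9 libraries by Pearson r of log2 CPM were Lrr1 (0.98), S1pr3 (0.98), Tor2a (0.97), Cntrl (0.95) and Copz1 (0.95), and 33 genes had an r above 0.9. Among those most like Dntt were Cry1 (0.98), Lgals1 (0.94), Copz1 (0.93) and Mrpl44 (0.93), with 30 genes above 0.9. Each of these named genes was highest in WT replicate 1, as Flt3 and Dntt were. Because they were chosen by r over the same libraries, this follows largely from the choice.

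Other genes of the same pathways were counted from lists, none of whose genes was called by edgeR in any comparison. Of 14 tested surface and adhesion genes of multipotent progenitors, 9 had a lower and 5 a higher level in TKO than WT, with a median of -0.86 log2; 3 of them were lower and 1 higher with an unadjusted p under 0.05. The smallest p was that of Cd74, the MHC class II invariant chain, which was also on the dendritic cell list and for which the WT libraries gave 57.1 ± 3.95 CPM, the δKO libraries 40.0 ± 8.74 and the TKO libraries 95.6 ± 19.1 (SD, n = 3). Its difference was 0.74 log2 (SE 0.28, edgeR adjusted p = 1.00) between TKO and WT and 1.26 (SE 0.28, edgeR adjusted p = 0.465) between TKO and δKO, where DESeq2 on all libraries gave an adjusted p of 0.00145. In that comparison DESeq2 called Cd74 upward and 1 gene of the list downward, Cd244a, named here after its values were seen, at -2.58 log2 (edgeR adjusted p = 0.465, DESeq2 adjusted p = 0.0154). Between TKO and δKO, 9 of the 14 were lower and 5 higher, with a median of -0.35 log2, and 2 were lower and 1 higher at that p. In δKO, 9 of the 14 were again lower than in WT, with a median of -0.34 and none at such a p.

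Of 13 genes of V(D)J recombination and end joining, 7 were lower in TKO than in WT and 8 lower than in δKO, with medians of -0.17 and -0.47 log2. In both comparisons 1 had an unadjusted p under 0.05, Hmgb2, a DNA-bending cofactor of the recombinase, with 319 ± 14.1 CPM in WT, against 336 ± 135 for δKO and 188 ± 53.2 for TKO (SD, n = 3). It differed by -0.77 log2 (SE 0.31) and -0.84 (SE 0.31), with edgeR adjusted p-values of 1.00 and 0.465. The median between δKO and WT was 0.18, and 0 of 13 had such a p.

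Of 25 other lymphoid transcription factors, 13 had a higher and 12 a lower level in TKO than WT (median 0.14 log2), 2 of them higher with an unadjusted p under 0.05. Ikzf4, an IKAROS family member, had the smallest p, at 1.96 ± 1.43 CPM in WT and 15.8 ± 3.99 in TKO, 3.01 log2 (SE 0.95, edgeR adjusted p = 1.00). Ikzf4 was at 22.9 and 6.39 CPM in δKO replicates 1 and 2 and 1.77 in the unnumbered library. Between TKO and δKO 15 were higher (median 0.07), 2 higher and 2 lower with an unadjusted p under 0.05; the smallest p was that of Pou2af1, at 0 in each library of both groups but TKO replicate 1, which had 1.99 CPM. In δKO 15 were higher than in WT (median 0.11), 2 higher and 1 lower with such a p, and Foxo1 had the smallest, with a difference of 1.71 log2 (SE 0.63, edgeR adjusted p = 0.699). δKO replicate 1 was at 186 CPM of Foxo1, while replicate 2 and the unnumbered library, at 32.4 and 25.9, lay near the 20.7 to 29.4 of WT.

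Of 16 tested Notch pathway genes, 11 were higher in TKO than in WT (median 0.10 log2), 1 with an unadjusted p under 0.05. This was Lfng, a glycosyltransferase that modifies Notch receptors, at 5.64 ± 0.835 CPM in WT and 24.9 ± 10.3 in TKO, 2.14 log2 (SE 0.76, edgeR adjusted p = 1.00). Lfng was at 2.07 and 21.6 CPM in δKO replicates 1 and 2 and 5.97 in the unnumbered library. Between TKO and δKO, where Notch1 was lower, 9 of the 16 were higher (median 0.10), 1 higher and 1 lower with an unadjusted p under 0.05. Relative to WT, δKO had 11 higher (median 0.22), and 1, Rbpj, the DNA-binding factor of the pathway, was lower with such a p, at 61.3 ± 10.3 against 89.5 ± 3.72 CPM, -0.55 log2 (SE 0.24, edgeR adjusted p = 0.699).

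Of 15 genes of FLT3 and IL-7 receptor signalling, 11 were higher in TKO than in WT (median 0.20 log2), 2 with an unadjusted p under 0.05. Cish, a feedback inhibitor induced by STAT5, had the smallest p, at 6.56 ± 3.71 CPM in WT and 25.6 ± 12.8 in TKO, 1.97 log2 (SE 0.76, edgeR adjusted p = 1.00). Cish was at 52.9 and 9.89 CPM in δKO replicates 1 and 2 and 10.3 in the unnumbered library. Between TKO and δKO 10 were higher (median 0.07) and 1, Foxo1, was lower with an unadjusted p under 0.05, -1.38 log2 (SE 0.62, edgeR adjusted p = 0.486). Its TKO libraries, at 28.5 to 34.8 CPM, were near each δKO library but replicate 1. In δKO, 10 were higher than in WT (median 0.20), 2 of them with such a p.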

How the data were processed

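Bone marrow LT-HSC RNA of 9 libraries (WT, δKO and TKO, 3 each) was amplified with the Ovation RNA-Seq System V2, a kit that does not mark strand, and sequenced paired-end. The authors trimmed reads with Trim Galore 0.3.7, checked them with FastQC 0.11.4, and aligned and counted them with STAR 2.5.1b on mm10; the annotation is not given in the sources used here. The deposited raw counts per gene were the input of the tests. The deposited normalized values (a signal, the counts divided by 1 factor per library with DESeq2) served as an alternative.

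The 10 genes and all lists were chosen with earlier results of these data known. Gene IDs were paired with GENCODE vM21 names, of which 47224 of 47643 matched without version. Genes were kept by filterByExpr (minimum count 10, minimum total 15), scaled by TMM and fitted in edgeR 4.0.16 (R 4.3.3) with quasi-likelihood tests, 1 mean per genotype over all 9 libraries and no replicate block. Benjamini-Hochberg adjustment covered all 18205 tested genes. Called means an adjusted p under 0.05 and more than 2-fold, and "adjusted p = 1.00" is 0.999579 or above after rounding. The SE of a log2 difference is its size divided by the square root of its F statistic. CPM are TMM-scaled, and CPM per kb divide by the union of exons, which counts all transcripts of a gene. Genes with a shared exon are uncertain, since strand was not marked. The smallest count a library can show limits low genes, and limits cover counting error only.

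All 10 genes were named. From each list the gene with the smallest unadjusted p per comparison was named where that p was under 0.05, since none was called, with members left out; marker lists are given as sums. A few results these rules would name are not reported here. The genes most like Flt3 and Dntt were taken from the 5 with the highest r of log2 CPM. Alternatives were DESeq2 1.42.0, voom in limma 3.58.1, other scalings and filters, and libraries left out. The scripts were tested on simulated counts. Flt3l of the receptor list did not match the table.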

Additional observations from a re-analysis of the deposited data

How the results depend on the processing

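The count of members called was 0 in all 3 comparisons and under every alternative run, except that DESeq2 on the groups compared called 2 between TKO and WT (Dntt and Ighm). Genes called between TKO and WT were 1, and 9 with only the groups compared in the fit, 12 with voom quality weights, 125 with DESeq2 on all libraries and 574 with DESeq2 on the groups compared. Between TKO and δKO they were 0, with 546 and 267 by DESeq2 on all libraries and on the groups compared. For δKO against WT they were 1, with 0 from only the groups compared and 188 and 194 by DESeq2. With both δKO replicate 1 and WT replicate 3 left out, an alternative chosen after seeing the data, genes called were 3 between TKO and WT and 2 between δKO and WT. With 1 library left out, genes called between TKO and WT ranged from 1 to 4, the latter without δKO replicate 1. The cause of these differences was not tested.

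The median over the members between TKO and δKO was -0.66 log2 and 0.0195 with a replicate block. For δKO against WT it was -0.63, and with 1 library left out it ranged from -0.93 to 0.17, the latter without WT replicate 1. The deviations of same-numbered libraries from their group means correlated between -0.04 and 0.08, and those of other pairs between -0.09 and 0.12. With 3 libraries per genotype, these values cannot show whether the numbers pair the libraries. The block, in which the unnumbered δKO library has a level of its own, was not used in the main fit. The block reversed the TKO to δKO differences of Flt3 (0.0761), Cd48 (0.0922) and Ikzf1 (0.0550) and the δKO to WT difference of Ikzf1 (-0.24).

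Other reversals were of differences past no threshold. Cd48 between TKO and δKO was 0.0136 with the deposited normalized values. Between δKO and WT, Ikzf1 was -0.0487 with upper-quartile factors and -0.20 with genes detected as a covariate, and Ebf1 was -1.92 with that covariate, -0.82 with voom and -3.69 with both named libraries left out. Ranges with 1 library left out, for the differences that reversed, were as follows. Between TKO and WT, Ikzf1 ranged from -0.35 to 0.0073 and Ebf1 from -0.0283 to 4.81. Between TKO and δKO, Flt3 ranged from -0.86 to 0.0048, Cd48 from -0.50 to 0.35, Ikzf1 from -0.50 to 0.0190 and Ebf1 from -2.82 to 6.07. Between δKO and WT, Flt3 ranged from -1.06 to 0.18, Dntt from -2.94 to 0.0160, Satb1 from -0.91 to 0.16, Ikzf1 from -0.23 to 0.33 and Ebf1 from -3.22 to 4.74. With the block, Ighm between TKO and δKO was -0.016 and Notch1 -0.80. The sign of no Ighm or Notch1 difference turned under the alternatives run, though that Ighm value is near 0. Depth limits Il7r, Rag1 and Ebf1, whose counts in most libraries were near 0.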
